A study of Mus musculus with 34 samples.

Results

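The hippocampus of Myt1l heterozygous mice was compared with that of wild-type mice by RNA sequencing of bulk tissue. The comparison took the 5 heterozygote and 6 wild-type hippocampus libraries, 11 of the 34 libraries in the series, which also sampled prefrontal cortex and striatum. Genes were kept where the mean normalized count over the 11 libraries was at least 10, which left 16820 of the 18548 genes in the table, and 1728 were below it. A normalized count is a read count that the submitters scaled for library depth. All mice in both groups were untreated C57BL/6J males at postnatal day 56. The labels speak of knock-out pups but do not describe the Myt1l allele, name no cell type in which it acts, and do not say that libraries came from separate animals, so a p-value measures the spread between these libraries, which may be partly technical.

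Myt1l is a zinc finger transcription factor of neurons that is known mainly as a repressor of genes of other lineages. The hippocampus is built from the dentate gyrus, whose granule cells send axons to CA3, and from the pyramidal fields CA3, CA2 and CA1, which lead on to the subiculum. The choroid plexus, an epithelium that makes cerebrospinal fluid and secretes transthyretin, lies in the ventricle against the hippocampus, and the thalamus lies beneath it, so that a dissected piece can hold either.

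Summed over genes, a heterozygote library held between 27160218 and 28002710 normalized counts and a wild-type library between 27469738 and 27871456. Across genes, which are not independent replicates, Pearson's r between libraries on the log2 scale was 0.978 to 0.986. The first part of the code in a column name divides the libraries into 3 sets, and the labels do not say what it stands for. Code 31 holds 1 heterozygote and 1 wild-type library, code 35 holds 3 and 4, and code 37 holds 1 and 1. The code 31-67M stands on heterozygote replicate 1 in hippocampus and on a wild-type library in prefrontal cortex. The labels were followed, and results that turn on this library are given also without it. Markers of the hippocampal fields were found at mean levels of at least 10 for 7 of 7 CA1 genes, 9 of 9 CA2 genes, 7 of 7 CA3 genes and 9 of 9 dentate granule genes. In a bulk sample, fewer cells of a type and less RNA per cell cannot be told apart.

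Myt1l itself was not lower in the heterozygotes. Myt1l (ENSMUSG00000061911, GRCm38 chromosome 12, 29528384 to 29923213, plus strand) was at 6669, 6674, 6941, 7550 and 6645 normalized counts in heterozygote replicates 1 to 5, and at 5552 to 7186 in wild type, with a median of 6107. The groups overlapped, because wild-type replicate 6 lay above 4 of the 5 heterozygote libraries. The log2 difference, heterozygote minus wild type, was 0.15 (SE 0.06, 95% interval 0.03 to 0.28), and it did not pass the threshold (limma adjusted p = 0.719). Over 27 alternative settings it ranged from 0.12 to 0.21. The counts are per gene, so they do not show whether the 2 alleles gave equal amounts or what part of the transcript was made.

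No gene in hippocampus passed the threshold, an adjusted p of 0.05. The smallest adjusted p of the 16820 genes was 0.0701, and 0% were called. Without adjustment, 1145 genes (6.81%) had a limma p under 0.05, where 841 would be reached if no gene differed. Of these, 492 were higher in heterozygotes (2.93% of all genes) and 653 were lower (3.88%). Scaling the libraries to equal totals turned that split to 621 higher and 525 lower, so the direction of the excess rests on the scaling. Differences were small: the median absolute log2 difference was 0.07, and 87.5% of genes lay within 0.25 of 0. The median 95% interval reached 0.19 to either side of a gene's difference. For 91.9% of genes it lay wholly within 1 of 0, and for 73.5% within 0.5 of 0. Of 96 genes with a difference of 1 or more, 83 had a mean below 100 normalized counts. The share with p under 0.05 was 4.94% for genes with a mean of 10 to 100, 6.38% for 100 to 1000 and 8.72% for 1000 or more. The median interval narrowed over the same classes from 0.57 to 0.20 and 0.10.

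**Figure D1:**
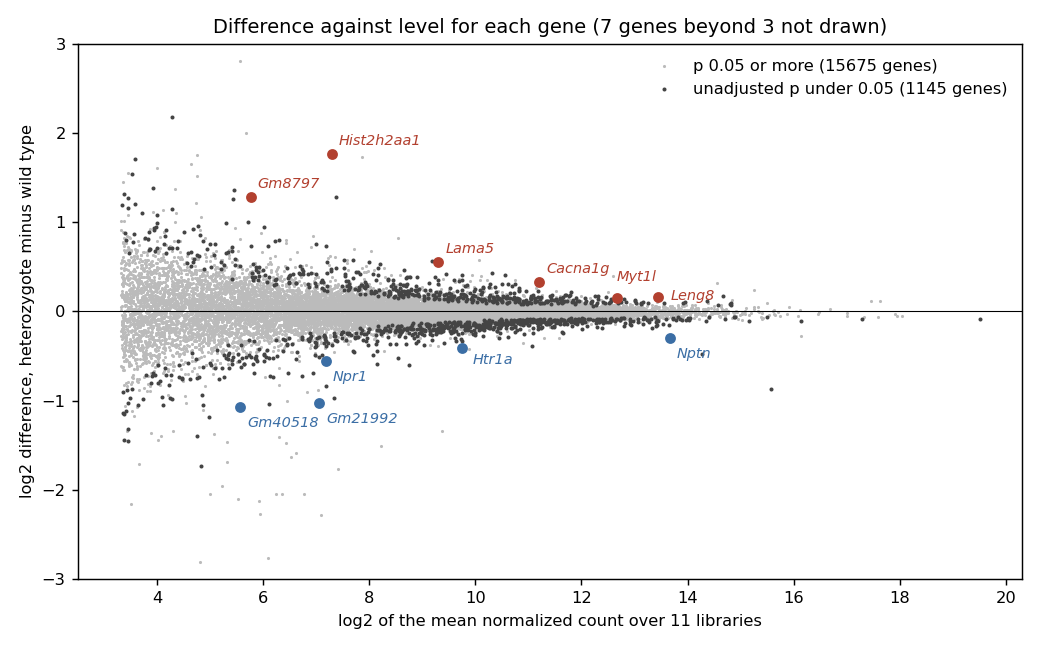
Log2 difference between heterozygote and wild-type hippocampus (vertical axis) against the log2 mean normalized count (horizontal axis) for each gene, with the 1145 genes of unadjusted p under 0.05 in dark grey and examples named in colour. The cloud narrows to the right, most of the 96 genes with differences of 1 or more sit at low levels, and 7 genes beyond 3 are not drawn.

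The gene with the smallest p encodes a calcium channel. Cacna1g (ENSMUSG00000020866, chromosome 11, 94408391 to 94474198, minus strand) encodes the pore of the low-voltage activated channel Cav3.1. It was at 2504, 3008, 2594, 2559 and 2658 normalized counts in heterozygote replicates 1 to 5, and at 2046 to 2245 in wild type, with a median of 2107. Every heterozygote library lay above every wild-type library, and replicate 2 was the highest. The log2 difference was 0.33 (SE 0.05; limma adjusted p = 0.0701). It was 0.35 without heterozygote replicate 1, where the gene passed (limma adjusted p = 0.0175), and over 27 alternatives it passed in 4, with differences of 0.28 to 0.35 and limma adjusted p of 0.0175 to 0.363. Apart from the pass with equal library totals, these passes all left out heterozygote replicate 1. Within the code 35 libraries the difference was 0.35 (SE 0.07).

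The 11 genes that followed among those higher in heterozygotes had smaller or less certain differences. Leng8, whose product belongs to the mRNA processing machinery of the nucleus (chromosome 7, 4137039 to 4148177, plus strand), was at 10938, 11926, 11657, 12026 and 12287 in heterozygotes and at 10072 to 10821 in wild type, with a median of 10527. All heterozygote libraries exceeded all wild-type ones, the first only narrowly, and the log2 difference came to 0.16 (SE 0.03; limma adjusted p = 0.238). Lama5, a laminin chain of basement membranes (chromosome 2, 180176373 to 180225859), was at 903, 776, 895, 611 and 630 in heterozygotes and at 401 to 578 in wild type, with a median of 533. Its difference was 0.55 (SE 0.12; limma adjusted p = 0.309), and replicates 4 and 5 lay near the wild-type range. Ptpru, a receptor tyrosine phosphatase, was at 1805 to 2172 against 1486 to 1801, and differed by 0.27 (SE 0.06). Hrk, a BH3-only protein that promotes cell death, had a difference of 0.24 (SE 0.05) with 1808 to 2179 against 1581 to 1781. Trib2, a pseudokinase, had one of 0.24 (SE 0.06), and Phf21a, a reader of unmethylated histone H3 tails in a repressor complex, one of 0.31 (SE 0.07) with 1771 to 2067 against 1307 to 1737. Tceanc2 overlapped between the groups, at 460 to 594 against 370 to 476, and C78859 did not, at 1377 to 1572 against 1186 to 1303.

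On the lower side stood a serotonin receptor and a pair of neuronal adhesion proteins. Htr1a (ENSMUSG00000021721, chromosome 13, 105443639 to 105448122, plus strand) encodes the inhibitory serotonin 1A receptor. It was at 847, 659, 699, 753 and 684 in heterozygotes and at 868 to 1042 in wild type, with a median of 982. The groups did not overlap, although heterozygote replicate 1 lay just under the lowest wild-type library. The log2 difference was -0.41 (SE 0.07; limma adjusted p = 0.0956). Without heterozygote replicate 1 it was -0.46 and the gene passed (limma adjusted p = 0.0152). Htr1a passed in 3 of 27 alternatives, all of which left out heterozygote replicate 1. Over the 27 its limma adjusted p ran from 0.0152 to 0.41. With all libraries of both groups kept, the gene passed in no alternative. Within the code 35 libraries the difference was -0.46 (SE 0.08).

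Cdh9, a type II cadherin of hippocampal synapses (ENSMUSG00000025370, chromosome 15, 16728756 to 16857094), was at 803, 671, 779, 776 and 758 in heterozygotes and at 900 to 1005 in wild type, with a median of 947. Nptn, which encodes neuroplastin, an immunoglobulin protein of synapses and a partner of plasma membrane calcium pumps (ENSMUSG00000032336, chromosome 9, 58582240 to 58657955), was at 12301, 11951, 12061, 11185 and 10140, against 13043 to 15246 in wild type with a median of 13984. For both genes all 5 heterozygote libraries lay below all 6 wild-type ones. The log2 differences were -0.33 (SE 0.06) for Cdh9 and -0.30 (SE 0.05) for Nptn, with limma adjusted p of 0.0956 and 0.103. Neither passed in any of the 27 alternatives, where Cdh9 ranged from -0.35 to -0.28 and Nptn from -0.33 to -0.23.

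Cplx1, a complexin that clamps vesicle fusion, was at 11023, 10162, 9851, 10496 and 10387 against 11284 to 11778, a difference of -0.15 (SE 0.03; limma adjusted p = 0.238). Cox5b, a subunit of cytochrome c oxidase, was at 3005, 2775, 3151, 2740 and 2962 against 3193 to 3798, a difference of -0.24 (SE 0.05; limma adjusted p = 0.238). In both, the groups were apart by a margin smaller than the spread within the heterozygotes. Hax1, a mitochondrial protein that protects against cell death, was at 686 to 822 against 880 to 991, and Efr3a, a membrane anchor of a lipid kinase, at 4779 to 5215 against 5443 to 6017. Stac2, an adaptor of voltage-gated calcium channels, was at 1611 to 1870 against 1923 to 2279. Npr1, the receptor of atrial natriuretic peptide, was at 105 to 123 against 144 to 208, a difference of -0.56 (SE 0.12). The noncoding gene Gm40518 was at 14.9 to 35.6 against 46.2 to 84.5.

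Among the 12 leading higher genes 10 had groups that did not overlap, as did 11 of the 11 lower genes described, where 0.321% and 0.357% of all genes tested were apart in these directions. Over both directions 114 genes (0.678%) had groups that did not overlap. The genes were picked by their p, which favours such separation, so the count is a description only.

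**Figure D2:**
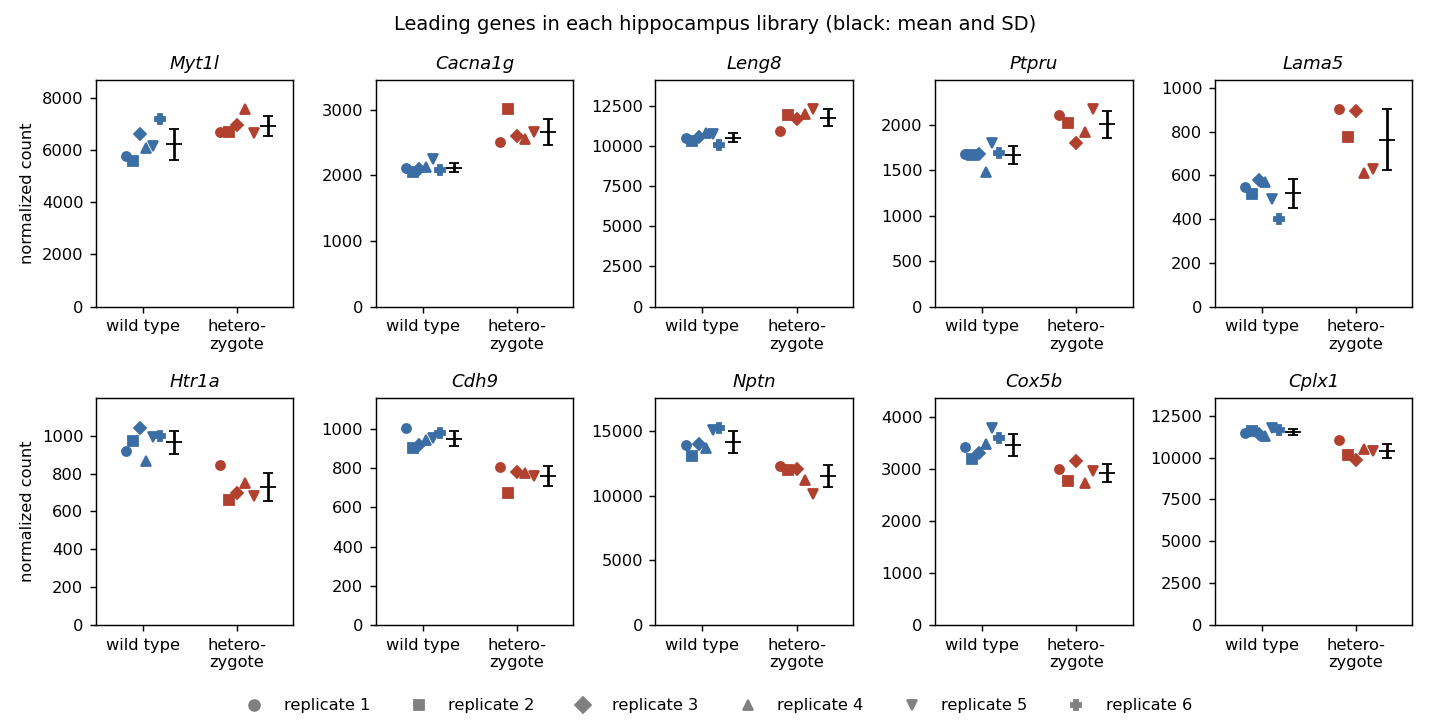
Normalized count (vertical axes, from 0) of 10 genes in each hippocampus library, with symbols for the replicate and black marks for the group mean and SD. Myt1l overlaps between the groups, and each of the other 9 genes separates the 5 heterozygote from the 6 wild-type libraries.

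Several of the genes with the smallest p have near-identical copies, between which short reads are assigned by estimation. Hist2h2aa1 and Hist2h2aa2 encode the same H2A histone, and 100% of the 31-base words of Hist2h2aa2 stand also in Hist2h2aa1. Hist2h2aa1 has 556 such words and Hist2h2aa2 has 498, so some words of Hist2h2aa1 are not in Hist2h2aa2. The stretch below, the first 60 bases of the coding sequence, shows why reads from the shared part cannot tell them apart. It is the same in Hist2h2aa1 (GRCm38 chr3:96245581-96245640, plus strand) and Hist2h2aa2 (chr3:96240191-96240250, minus strand), with 0 differences over 528 aligned bases.
Hist2h2aa1: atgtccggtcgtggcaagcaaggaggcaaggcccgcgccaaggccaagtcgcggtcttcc
Hist2h2aa2: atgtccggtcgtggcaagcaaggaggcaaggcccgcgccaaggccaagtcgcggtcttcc
Hist2h2aa1 was at 96.1, 230, 358, 316 and 298 in heterozygotes and at 56.1 to 100 in wild type, and its log2 difference came to 1.77 (SE 0.29; limma adjusted p = 0.103). Hist2h2aa2 was at 214 in heterozygote replicate 1, was listed at 0 in replicates 2 to 5, and was at 216 to 312 in wild type. Where one copy was high the other was low. Their sum was 310, 230, 358, 316 and 298 in heterozygotes and 275 to 368 in wild type, with a mean of 302.5 ± 46.3 (SD, n = 5) against 311.9 ± 35.1 (SD, n = 6). The log2 difference of the sum was -0.05 (exact permutation test over 462 arrangements, 2-sided, p = 0.69), so the 2 single differences did not show in the total. Gm20633, a transcript annotated antisense to the locus, holds 100% of the words of Hist2h2aa1 and was at 21.7 to 32.5 against 26.6 to 40.3. With it added, the sum differed by -0.07 (exact permutation p = 0.571).

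Gm8797 and Gm21992 kept their sign when summed with the closest copy. Gm8797, annotated as protein coding, shares 93% of its words with Gm1821. Gm1821, annotated as a transcribed processed pseudogene, shares 86.3% with the ubiquitin gene Ubb. Gm8797 was at 68.5 to 94.9 against 23.8 to 46.5, and Gm1821 at 1514 to 1786 against 1118 to 1460. Summed, the pair was at 1595 to 1880 against 1144 to 1504, a log2 difference of 0.34 (exact permutation p = 0.00433). Both genes were picked by their p and separated the groups on their own. Their sum therefore had to separate them, and its p is a description only. Ubb was at 28445 to 30442 against 29867 to 31533. With Ubb added, the sum differed by -0.04 (exact permutation p = 0.0909), the opposite sign to Gm8797 and Gm1821. Ubb makes up most of that sum, so it mainly restates Ubb. Gm21992, a predicted gene that shares 50.6% of its words with the RNA-binding protein gene Rbm4, was at 47.6 to 116 against 123 to 212. Its sum with Rbm4 kept the sign, at 687.5 ± 72.8 (SD, n = 5) against 812.1 ± 43.6 (SD, n = 6), a log2 difference of -0.24 (exact permutation p = 0.013, without adjustment for the 7 sums tested). Gm21992 was also picked by its p in these libraries, so this value is a description too.

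Another 5 genes passed the adjusted threshold only once particular libraries were left out. Fam205a2, all of whose 31-base words stand also in related Fam205a genes, was at 52.8 to 98.3 in heterozygotes, was listed at 0 in 5 wild-type libraries and stood at 100 in wild-type replicate 2, without which it passed. Gm21985, which shares 92.6% of its words with other genes, had the same form, at 14.7 to 119 in heterozygotes, at 109 in wild-type replicate 3 and at 0 in the other 5. Lbhd1 was at 82.6 to 126 in heterozygotes and at 66.9 in wild-type replicate 6, against 176 to 292 in the other wild-type libraries. Its difference was -0.97 (SE 0.32) with all libraries and -1.27 without wild-type replicate 6. The DNA repair gene Brca2 was at 78.3 in heterozygote replicate 1 and 163 to 259 in the other 4, against 69.6 to 166. Gpatch11, a gene of a spliceosome-associated protein, was at 533 in that replicate and 757 to 992 in the others, against 500 to 674. These last 2 passed without the code 31 libraries. With all libraries none of the 5 passed, and their limma adjusted p was 0.353 to 0.719.

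Gene lists described by function had medians close to that of all genes, which was -0.00 on the log2 scale with 49.4% of differences above 0. Of 26 function lists, 22 had a median within 0.05 of 0. Over all genes 2.93% were higher and 3.88% lower at unadjusted p under 0.05, and the counts of list members in these terms are to be read against those shares. Splicing factors and transcripts held in the nucleus lay mostly above 0, with 27 of 34 members there. Of the 34, 13 were higher at unadjusted p under 0.05 (2.93% of all genes were) and 0 lower, and the median difference was 0.07. The list was written with earlier results of these data known and holds Leng8, so these counts are a description only. Beside Leng8, Srsf5, a serine-arginine splicing factor, was at 8445, 8603, 8593, 8935 and 8442 against 7600 to 8289, a difference of 0.12 (SE 0.03; limma adjusted p = 0.431). Snrnp70, the core protein of the U1 particle, was at 9045 to 10063 against 8618 to 9337, with a difference of 0.11 (SE 0.03). The mean log2 level of the list was 12.83 to 12.87 in heterozygote libraries and 12.78 to 12.81 in wild type, without overlap. The mitochondrially encoded subunits, described below, also separated by this measure. As a share of normalized counts the splicing list overlapped, at 1.54% in heterozygote replicate 1 and 1.57% in wild-type replicate 1. The median difference of the splicing list stayed between 0.06 and 0.08 in all 27 alternatives, and no member passed the adjusted threshold.

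Vesicle release genes and respiratory chain subunits leaned to the other side. Of 34 genes of vesicle release, 25 lay below 0, 7 were lower at unadjusted p under 0.05 (against 3.88% of all genes) and 0 higher, and the median was -0.05. After Cplx1 came Syt1, the calcium sensor of fast release, at 37685, 35422, 34277, 33450 and 34194 against 36426 to 38676 (difference -0.11, SE 0.03), and the vesicle protein gene Syngr1 at -0.10 (SE 0.04). The lower values of this list came from heterozygote replicates 3, 4 and 5, whose means were 0.05 to 0.10 below the wild-type mean, while replicates 1 and 2 lay within the wild-type range or above it. The median was -0.03 without replicate 3 and -0.02 without replicate 4. Other omissions of single libraries took it as low as -0.07, and it was -0.06 within the code 35 libraries. In all 27 alternatives it stayed below 0. Of 59 nuclear-encoded respiratory chain subunits, 40 lay below 0, 12 were lower at unadjusted p under 0.05 (against 3.88% of all genes) and 0 higher, with a median of -0.04. Leaving out heterozygote replicate 5 gave a median of -0.01 and leaving out wild-type replicate 6 gave -0.02, and it was 0.01 within the code 35 libraries. Uqcrq of complex III was at -0.18 (SE 0.05) and Ndufb8 of complex I at -0.12 (SE 0.04), and both overlapped between groups.

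Of the 13 mitochondrially encoded subunits, 11 lay below 0 and 4 were lower at unadjusted p under 0.05, with a median of -0.06. The largest were mt-Co3 (-0.87, SE 0.26) and mt-Atp6 (-0.48, SE 0.18), which share 99.9% and 99.5% of their words with the nuclear copies Gm28437 and Gm10925. The sum of mt-Co3 and Gm28437 differed by -0.07 (exact permutation p = 0.0498) and that of mt-Atp6 and Gm10925 by -0.06 (p = 0.167). The summed differences were thus smaller than the single ones. mt-Co1, which was not summed with a copy, was at 689492 to 762153 against 729180 to 821651, a difference of -0.09 (SE 0.03). The mean log2 level of the 13 subunits did not overlap, at 15.5 to 15.76 in heterozygotes against 15.78 to 15.91 in wild type. That mean takes mt-Co3 and mt-Atp6 without their copies.

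Receptor and channel groups had medians near 0, apart from the serotonin and metabotropic glutamate receptors. Of 11 serotonin receptors tested, 8 lay below 0 with a median of -0.12, and Htr1a was the 1 member with unadjusted p under 0.05. Leaving out heterozygote replicate 2 moved the median to -0.19, and leaving out wild-type replicate 5 moved it to -0.06. Htr4 and Htr7, which raise cyclic AMP, were at -0.21 (SE 0.10) and -0.21 (SE 0.10). Of 33 potassium and HCN channel subunits, 23 lay below 0, 3 were lower and 1 higher at unadjusted p under 0.05, and the median was -0.03. Hcn2, a pacemaker channel, was at 2408, 2069, 2075, 2128 and 2140 against 2351 to 2550 (difference -0.17, SE 0.05), with heterozygote replicate 1 inside the wild-type range. Among 15 calcium channel subunits the median was -0.00, with 7 above 0 and 8 below. Kcnip4, a subunit that modulates A-type potassium channels, was at 1116 to 1399 against 1323 to 1463 (difference -0.18, SE 0.06), and its heterozygote replicate 4 lay inside the wild-type range. The potassium and HCN median moved to -0.01 with heterozygote replicate 5 left out and to -0.02 with wild-type replicate 6 left out. Of 8 sodium channel subunits 5 lay below 0, with a median of -0.03. Cacna1i, which encodes the related T-type pore Cav3.3, had a difference of -0.24 (SE 0.07), the opposite sign to Cacna1g. Of 15 ionotropic glutamate receptor subunits 2 were lower at unadjusted p under 0.05, among them the obligatory NMDA receptor subunit gene Grin1 at -0.08 (SE 0.03). Of 14 GABA receptor subunits 8 lay above 0, with a median of 0.01. Of 7 metabotropic glutamate receptors 6 lay below 0, with a median of -0.06 and 0 at unadjusted p under 0.05. That median ran from -0.12, with heterozygote replicate 2 left out, to -0.01, with wild-type replicate 2 left out, and it was 0.02 without heterozygote replicates 4 and 5.

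Among 43 adhesion genes 17 lay above 0 and 26 below, with a median of -0.01, and after Cdh9 and Nptn came Cadm2, a synaptic cell adhesion molecule, at -0.12 (SE 0.05). Of 34 regulators associated with autism 2 were higher and 6 lower at unadjusted p under 0.05, against 2.93% and 3.88% of all genes. Of 19 activity-induced genes 13 lay above 0, and the 2 higher at unadjusted p under 0.05 were Fosb (0.38, SE 0.12) and Egr2 (0.74, SE 0.30). Fosb was at 582, 534, 445, 419 and 391 against 300 to 467. The mean of the activity-induced list stood 0.17 to 0.37 above the wild-type mean in heterozygote replicates 1 to 3, and 0.17 and 0.22 below it in replicates 4 and 5. The list median of 0.03 was -0.02 without replicate 1 and 0.11 without replicate 5. In the list of Myt1l's family and its repressor partners, 8 of 13 lay above 0 with a median of 0.04, and Ncor1, a corepressor, was at 0.10 (SE 0.04). Of 17 genes of the Notch pathway and its repressors, a set that Myt1l is known to restrain, 9 lay above 0 with a median of 0.00. Notch1 was at 1715 in heterozygote replicate 1 and at 1049 to 1296 in the other 4, against 961 to 1121. Of 14 genes of immature granule neurons and neurogenesis 10 lay above 0, with a median of 0.03. Igfbpl1, which marks immature granule neurons, was at 91.7 to 114 against 52 to 106 (difference 0.37, SE 0.17).

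Among 21 neuropeptide and granin genes 13 lay above 0, with a median of 0.03. Scg2, which encodes secretogranin II of dense core vesicles, was at 5310, 5705, 4922, 5668 and 5422 against 4380 to 5277 (difference 0.17, SE 0.06), so that 4 of 5 heterozygote libraries lay above wild type. Of 27 chaperone and unfolded protein response genes 16 lay below 0, with a median of -0.02. Hspa1b, an inducible Hsp70, was at 338 to 482 against 463 to 602 (difference -0.33, SE 0.09), and its co-chaperone gene Bag3 was at 233 to 303 against 205 to 238 (difference 0.27, SE 0.09). The pair lay on opposite sides of 0. Of 77 genes of cytosolic ribosomal proteins 34 lay above 0 and 43 below, with 6 higher and 5 lower at unadjusted p under 0.05 and a median of -0.01. The 21 postsynaptic scaffold genes were divided 11 to 10, with a median of 0.00. Homer1, a scaffold of metabotropic glutamate receptor complexes, was at 5073 to 5388 against 4582 to 5373 (difference 0.10, SE 0.04).

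**Figure D3:**
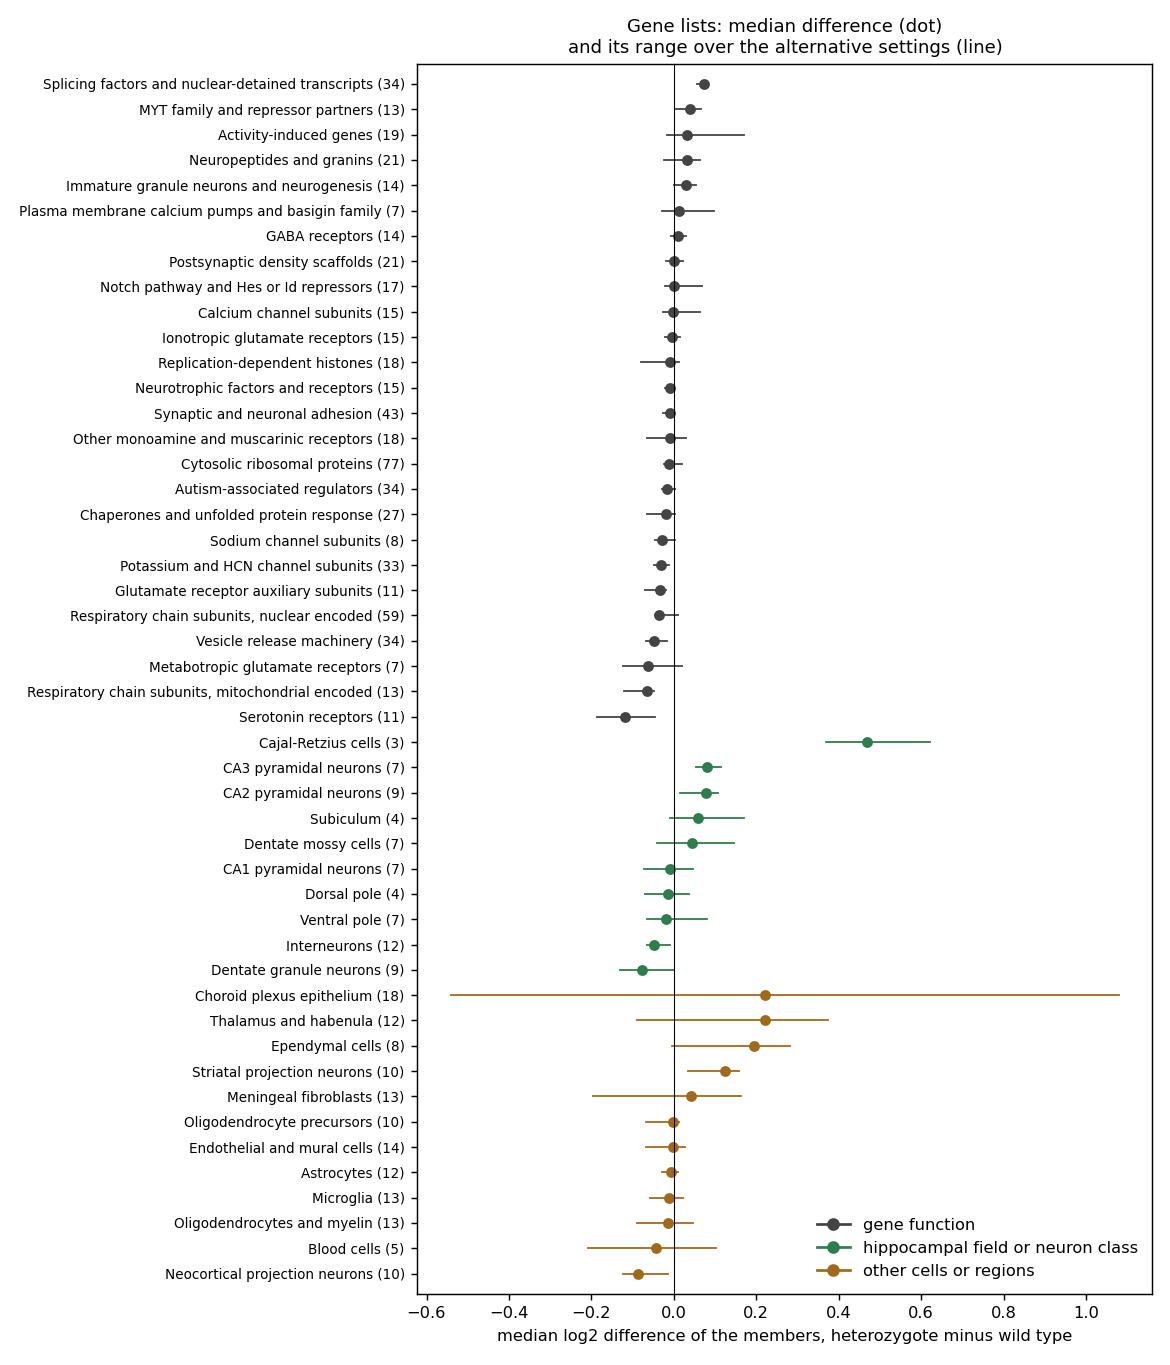
Median log2 difference of each gene list (dot, horizontal axis) with the number of genes tested in parentheses, and the range of that median over 27 alternative settings (line). The splicing list lies at 0.07 with a narrow range, most function lists lie within 0.05 of 0, and the choroid plexus list at 0.22 ranges from -0.54 to 1.08. The Cajal-Retzius dot is not read, because its member Lhx1 passed the filter through the heterozygotes.

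By hippocampal field, list medians were of the same small size, with the Cajal-Retzius list left aside. Its median is not read, because its member Lhx1 passed the filter through the heterozygotes. All 7 CA3 markers lay above 0, with a median of 0.08, and that median was 0.05 to 0.11 over the 27 alternatives, the lowest value without heterozygote replicate 4. Nnat, which encodes the small membrane protein neuronatin, was at 6910 to 8050 against 6044 to 7613 (difference 0.14, SE 0.06), and Npy2r, a presynaptic receptor of neuropeptide Y, at 1421 to 1664 against 1235 to 1566 (difference 0.12, SE 0.06). The mean of the CA3 list was 0.07 to 0.16 above the wild-type mean in heterozygote replicates 2 to 5 and 0.04 below it in replicate 1. Of 9 CA2 markers 7 lay above 0, with a median of 0.08. Pcp4, a calmodulin regulator, was at 1795, 2029, 1625, 2406 and 2363 against 1639 to 1961, so replicates 4 and 5 were the highest and replicate 2 also lay above wild type. Without those 2 libraries the CA2 median was 0.01. Rgs14, a signalling regulator that marks CA2, was at 1859 to 2132 against 1817 to 1962 (difference 0.08, SE 0.04).

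Dentate granule markers leaned the other way: 7 of 9 lay below 0, 3 were lower at unadjusted p under 0.05 (against 3.88% of all genes) and 0 higher, with a median of -0.08. They were the channel gene Trpc6 (-0.21, SE 0.09), the synaptic organizer Lrrtm4 (-0.15, SE 0.06) and Stxbp6 (-0.10, SE 0.04), a regulator of vesicle fusion. In all 3, heterozygote replicate 1 was as high as wild type, and the mean of the list was 0.12 above the wild-type mean in replicate 1 and 0.25 below it in replicate 2. Prox1, the transcription factor that defines granule cells, was at 4925, 3313, 4143, 4341 and 3512 against 3442 to 4261, a difference of 0.01 (SE 0.09) that took the other sign in 9 of 27 alternatives. The dentate median was -0.00 without heterozygote replicate 2, -0.04 without heterozygote replicate 5 or wild-type replicate 4, and -0.05 without wild-type replicate 6. Other omissions of single libraries took it as low as -0.10, and the lowest of the 27 alternatives was -0.13. Without the 2 libraries lowest in choroid plexus markers, heterozygote replicate 1 and wild-type replicate 6, it was -0.09. The 7 CA1 markers had a median of -0.01, with 3 above 0, 1 lower at unadjusted p under 0.05 and 0 higher. Wfs1, a membrane protein of the endoplasmic reticulum in CA1, was at 0.10 (SE 0.06). Mossy cell and subiculum markers had medians of 0.04 and 0.06. Leaving out single libraries took the mossy cell median from -0.03 (wild-type replicate 1) to 0.11 (heterozygote replicate 1), and it took the other sign in 8 of 27 alternatives. The subiculum median ran from -0.01 (wild-type replicate 4) to 0.13 (wild-type replicate 3). Ajap1, a membrane protein of mossy cells, was at 1287 and 1213 in heterozygote replicates 1 and 2 and at 1009 to 1052 in the others, against 720 to 1093 (difference 0.25, SE 0.10). Markers of the dorsal and ventral poles had medians of -0.01 and -0.02. Without the 2 libraries lowest in choroid plexus markers these were -0.06 and 0.08. The dorsal median took the other sign in 5 of 27 alternatives and the ventral one in 11. Spata13 of the dorsal list was at -0.20 (SE 0.09), and Dcn of the ventral list, which meningeal fibroblasts also express, was at -0.22 (SE 0.10). Of 12 interneuron markers 8 lay below 0, with a median of -0.05, which was -0.02 without heterozygote replicate 3 or 5 and -0.03 without wild-type replicate 1 or 6. Vip, a neuropeptide of disinhibitory interneurons, was at 355 to 472 against 408 to 512 (difference -0.19, SE 0.08). Of the Cajal-Retzius genes, of cells that line the hippocampal fissure, 3 of 4 were tested. Ebf3 was at 62.5, 42.3, 46.3, 35 and 38.9 against 21.5 to 43.1 (difference 0.47, SE 0.23), and Trp73 was at 88.2 to 257 against 81.6 to 156 (difference 0.38, SE 0.24). Lhx1, with means of 13.6 in heterozygotes and 7.58 in wild type, passed the filter through the heterozygotes, so its sign is not counted. The groups overlapped in both other genes, and neither had an unadjusted p under 0.05.

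Choroid plexus RNA differed widely between libraries and not mainly between genotypes. Ttr, the gene of transthyretin, was at 1591, 20035, 68803, 78192 and 61115 normalized counts in heterozygote replicates 1 to 5. In wild type it was at 1298 in replicate 6 and at 26726 to 59896 in the other 5. The low libraries were thus 1 of each genotype, and the high ones were heterozygote replicates 3 to 5 with wild-type replicate 4. The 18 marker genes together made up 0.03% and 0.0266% of the normalized counts in the low pair and 0.142% to 0.524% in the other 9. All 18 had a positive difference, with a median of 0.22 and a range of 0.04 to 0.44, and 0 of 18 had an unadjusted p under 0.05. For Ttr the difference was 0.24 with an interval of -2.72 to 3.19. The median of the list ranged from -0.54 to 1.08 over the alternatives and took the other sign in 9 of 27.

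Levels of 217 genes (1.29% of those tested) followed the mean of the choroid plexus markers at limma adjusted p under 0.05, in a fit that held genotype as a term. They included 18 of the 18 markers, whose own levels make up that mean, so this count is a description only. They also included 199 other genes, of which 179 had a positive slope. The other genes with the smallest p included Mfrp, at 22.2 and 22.9 in the low pair and 331 to 1295 elsewhere, the collagen gene Col8a1, and Ace, the angiotensin converting enzyme. Of the 199, 3 (1.51%) had an unadjusted p under 0.05 in the fit with genotype alone, against 6.81% of all genes. That fit held no choroid plexus term, so the variation that picked these genes also widened their SE (Mfrp 0.29, SE 1.31). The low share is thus a description only. The 3 were Hist2h2aa1, Trim56 (0.29, SE 0.09) and Hapln1 (-0.22, SE 0.10). Hapln1, a link protein of the perineuronal matrix, was lowest in the choroid-rich heterozygote replicates 3 to 5. With the marker mean as a covariate the difference was 0.33 for Cacna1g, -0.40 for Htr1a, -0.33 for Cdh9, -0.29 for Nptn and 0.16 for Leng8. Without the low pair it was 0.34, -0.45, -0.34, -0.30 and 0.18. The 9 libraries of that set still ran from 0.142% to 0.524% in choroid plexus share, and the list median there was 0.45. Cacna1g and Htr1a passed in that smaller set, at limma adjusted p of 0.0411 and 0.0411. The set also lacks heterozygote replicate 1, and both genes passed when that library alone was left out. With the covariate and all 11 libraries neither passed, at limma adjusted p of 0.0548 and 0.0548. The list medians of vesicle release, splicing and CA3 with the covariate were -0.04, 0.07 and 0.07.

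Markers of other neighbouring tissue varied as well. The thalamus and habenula list stood 0.98 and 0.59 above the wild-type mean in heterozygote replicates 4 and 5, and within 0.20 of it in replicates 1 to 3. Of its 12 members tested 10 had a difference above 0, with a median of 0.22. It was 0.09 without replicate 4, 0.12 without replicate 5 and -0.09 without both, and it was 0.35 without replicate 1 and 0.37 without replicate 3. Gbx2 and Pou4f1, which help define thalamus and habenula, were not among the genes tested. Rgs16 was at 221, 196, 210, 372 and 331 against 143 to 237. Without replicates 4 and 5 the number of genes lower at unadjusted p under 0.05 was 401 rather than 653, and the vesicle release median was -0.02. The part of thalamic RNA in those results was not tested beyond these values and the fit with the thalamus mean as covariate, where the vesicle release median was also -0.02 and Cacna1g was at 0.34. Six3, a homeobox gene of striatal neurons, was at 8.02, 73.4, 35.2, 141 and 106 against 12 to 24.6, and 7 of 10 striatal projection markers lay above 0, with a median of 0.12. Without heterozygote replicate 5 that median was 0.04, and without wild-type replicate 6 it was 0.08. With the choroid plexus covariate it was 0.07. The mean of the striatal list was lowest in the choroid-low pair, at 6.06 in heterozygote replicate 1 and 6.08 in wild-type replicate 6. The part of choroid plexus RNA in that list was not tested further. Ependymal markers, of the cells that line the ventricle, had a median of 0.20, with 7 of 8 above 0. Their mean was lowest in wild-type replicate 6 and heterozygote replicate 1 and highest in heterozygote replicates 3 to 5, as for the choroid plexus, and without heterozygote replicate 4 the median was 0.10. Rarres2 was at 132 to 211 against 93.2 to 148, and Dynlrb2, a dynein light chain, at 38.9 to 70.4 against 26.6 to 47.7. Astrocyte, oligodendrocyte, microglia and endothelial lists had medians within 0.02 of 0. Among microglial genes Trem2 was at 210 to 220 against 158 to 203 and Siglech at 303 to 363 against 357 to 423, in opposite directions.

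**Figure D4:**
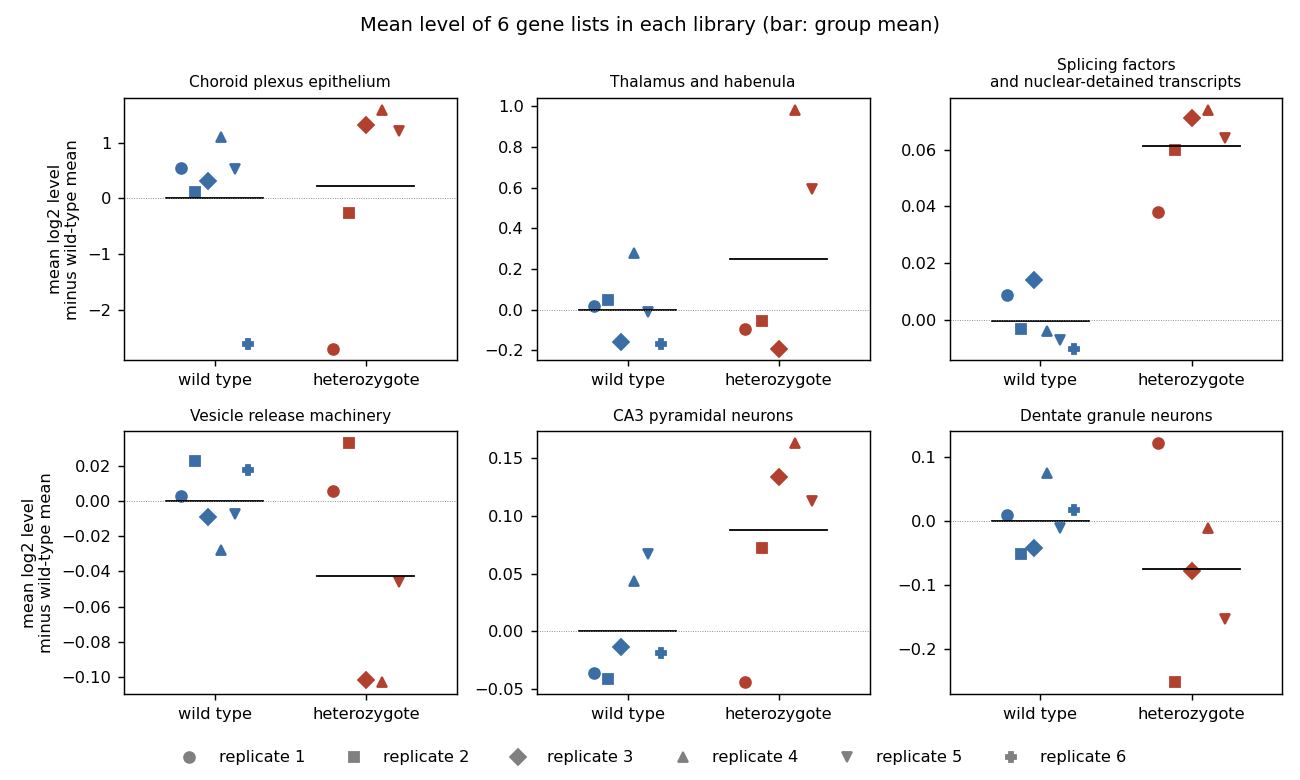
Mean log2 level of 6 gene lists in each library, relative to the wild-type mean (vertical axes), with symbols for the replicate and bars for group means. Choroid plexus markers are low in heterozygote replicate 1 and wild-type replicate 6, thalamus markers are high in heterozygote replicates 4 and 5, and the splicing list alone of the 6 separates the groups.

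The leading hippocampus genes were set beside prefrontal cortex and striatum in a model of all 34 libraries. No gene's hippocampus difference departed from that in another region at adjusted p under 0.05: 0 of 17051 genes (0%) did so against prefrontal cortex and 0 against striatum, with 641 (3.76%) and 629 (3.69%) at unadjusted p under 0.05. In that model Cacna1g differed by 0.02 (SE 0.09) in prefrontal cortex and 0.16 (SE 0.09) in striatum. Leng8 was at 0.09 (SE 0.04) and 0.18 (SE 0.04) there. Cdh9 had values close to its hippocampus one in both, at -0.34 (SE 0.12) and -0.28 (SE 0.12). Nptn was at -0.06 (SE 0.06) and -0.23 (SE 0.06), and Htr1a at -0.26 (SE 0.09) and -0.06 (SE 0.09). Cox5b was below 0 in both, at -0.17 (SE 0.06) and -0.14 (SE 0.06). Npr1 had the opposite sign in both, at 0.14 (SE 0.14) and 0.31 (SE 0.13), and its hippocampus value departed from the striatum value by -0.87 (SE 0.19; limma unadjusted p = 7.33e-05, adjusted p = 1). Phf21a was likewise at -0.16 and -0.17 in the other regions. Of the 23 leading genes 16 had the hippocampus sign in prefrontal cortex and 16 in striatum. The share of all genes with the same sign was not counted, so these counts do not show agreement between regions. Every library of the 3 regions carries a code that also stands in another region, and the labels do not say whether a code marks an animal, so the regions are not shown to be independent samples.

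**Figure D5:**
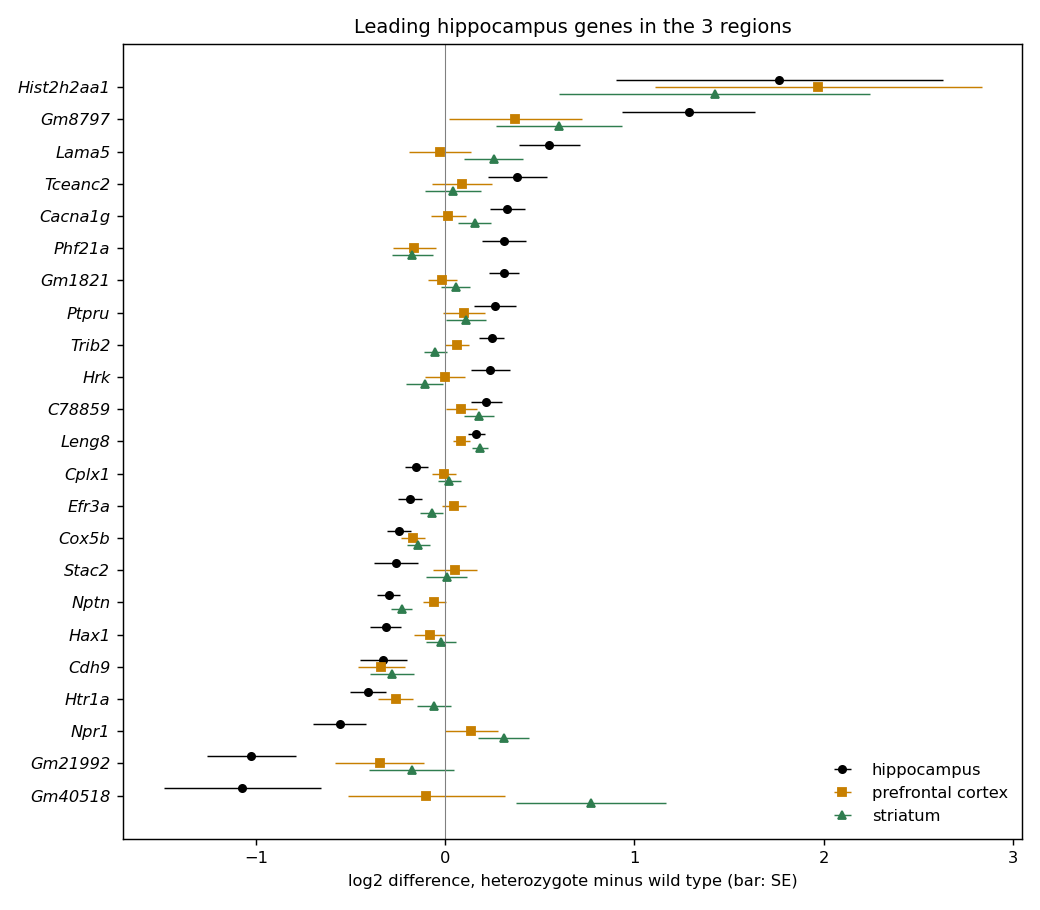
Log2 difference between heterozygote and wild type (horizontal axis, bars are SE from the model of 34 libraries) in hippocampus, prefrontal cortex and striatum for the 23 leading hippocampus genes. Cdh9 and Leng8 have the same sign in the 3 regions, and Npr1, Phf21a and Gm40518 do not.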

How the data were processed

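Total RNA of hippocampus was sequenced in 5 heterozygote and 6 wild-type libraries, grouped by their labels. The values are a signal for each gene in each library, deposited under a name in which the authors call them DESeq counts: read counts divided by a factor per library, called normalized counts here. The submitters' processing notes list DESeq2 1.26.0, R 3.6.2, Salmon 1.1.0 and the build GRCm38, and give none of them a role. The values were not whole numbers, so no count test was run, although one had been planned for raw counts. The depth before scaling is unknown. Low values clustered at steps of 0.895 to 1.125, near the worth of 1 read, so precision is shown by the spread over the libraries of a group. Every gene in the table reached at least 10.2 in some library. Of 18548 identifiers 18533 matched GENCODE M21 (GRCm38), which gave symbols and positions.

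Values were taken as log2(value + 1), and genes with a mean of at least 10 were fitted by genotype in limma 3.58.1 with R 4.3.3 (empirical Bayes with trend and robust options, 2-sided). P-values were Benjamini-Hochberg adjusted over all genes, with a threshold of 0.05. Fold changes are on that log2 scale and understate those of low genes. Effects were compared between regions in 1 model of 34 libraries. The fits were tested on simulated data. Shared sequence was counted as 31-base words of GENCODE M21 transcripts. Python 3.11.15, numpy 2.4.6, pandas 2.3.3, scipy 1.17.1 and matplotlib 3.10.9 made the other tables and the figures.

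The members and lists were chosen with earlier results of these data known, and several lists share members. Lists are described by counts and medians, without a test. The genes named were Myt1l, the 12 with the smallest p in each direction, up to 3 members of a list with the smallest p, further field and choroid plexus markers, and genes that passed in an alternative. Genes outside that rule (Mfrp, Col8a1, Ace, Trim56, Hapln1 and the gene copies) were named after their values were seen. Some genes that the rule picks are not reported here. Alternatives were the pseudocount, the filter, leaving out each library, the replicate block, the scaling, 3 covariates, the code 35 libraries alone and eBayes without a trend. Those without the choroid-low pair, without the thalamus-high pair, without code 31 and with both covariates were chosen after seeing the data.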

Additional observations from a re-analysis of the deposited data

Results flagged for a closer look

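Among 264 groups of libraries checked, 13 held a library far from the others of its group, and chance gives about 1 in 20. Values here are log2(normalized count + 1), with the range of the other libraries of the group after each.

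Choroid plexus markers had a mean of 6.11 in wild-type replicate 6, against 8.83 to 9.83 in the other wild-type libraries, and Ttr was at 10.34 there, against 14.71 to 15.87. Lbhd1 was also low in that library, at 6.08 against 7.47 to 8.19. Heterozygote replicate 1 stood above the other heterozygotes for the histone list, at a mean of 6.36 against 5.87 to 5.93, and for Hcn2, at 11.23 against 11.02 to 11.06. Its Hist2h2aa2 value was 7.75, where the other 4 were listed at 0. In wild type, Hist2h2aa2 was highest in replicate 1, at 8.29 against 7.76 to 7.9.

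Heterozygote replicate 2 had the highest mean of the interneuron list, at 10.76 against 10.55 to 10.6, and of the adhesion list, at 11.26 against 11.14 to 11.17. Gm40518 was low in heterozygote replicate 4, at 3.99 against 5 to 5.19. Prox1 was low in wild-type replicate 2, at 11.75 against 11.95 to 12.06. Fam205a2 stood at 6.66 in wild-type replicate 2 and Gm21985 at 6.78 in wild-type replicate 3, where the other 5 libraries were listed at 0.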

How the results depend on the processing

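The number of genes past the adjusted threshold, 0 with all libraries, was 0 to 4 when single libraries were left out. It was 4 without heterozygote replicate 1 (Cacna1g, Htr1a, Hist2h2aa1 and Hist2h2aa2), 2 without wild-type replicate 2 (Fam205a2 and Gm8797), and 1 each without wild-type replicate 3 (Gm21985) or 6 (Lbhd1). It was 1 with equal library totals (Cacna1g), and 1 with the choroid plexus covariate, with the code set as covariate and with the choroid plexus and thalamus covariates together (Hist2h2aa1 in each). It was 2 with the code 35 libraries alone (Hist2h2aa1 and Hist2h2aa2), 6 without the 2 libraries lowest in choroid plexus markers and 6 without the code 31 libraries. The genes lower at unadjusted p under 0.05 numbered 401 without the 2 libraries highest in thalamus markers. The cause was not tested. Leaving out single libraries gave 455 to 643 higher and 465 to 804 lower genes at unadjusted p under 0.05. The region interaction had 0 genes past the threshold in all 16 alternatives.

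Ttr took the other sign in 9 settings, and its difference ran from -0.575 to 1.234 when single libraries were left out. It was -0.088 with the choroid plexus covariate, -0.481 with the thalamus covariate, -0.729 without the thalamus-high pair and -0.005 with both covariates. Prox1 ran from -0.07 to 0.073 when single libraries were left out. It was -0.00 with the code covariate, -0.013 with code 35 alone, -0.065 without the choroid-low pair, -0.06 without code 31 and -0.005 with both covariates. Of 2232 values of 83 genes under the 27 alternatives, 2188 kept direction and side of the threshold, 26 came to pass it and 18 changed sign. Of 1322 list medians 1305 moved by less than the spread between libraries.

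Replicate numbers recur in the 2 groups, but same-numbered libraries did not deviate together, with correlations of -0.035 to 0.071, and 1 of 5 heterozygote libraries correlated best with its own number. With the replicate block 0 genes passed, 505 were higher and 608 lower at unadjusted p under 0.05, and Ttr was at -0.575. With 5 and 6 libraries the 95% interval reached 0.19 to either side for the median gene and 0.57 for the median gene with a mean of 10 to 100, so small differences were not detectable for many genes of low level.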

Other observations

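Lists that no comparison turned on held few low or high members. Of 10 markers of neocortical projection neurons, a tissue that lies over the hippocampus, 6 lay below 0, with a median of -0.09 and a range of -0.12 to -0.01 over the 27 alternatives. Tbr1, a transcription factor of deep cortical neurons, was at 1260, 1427, 1004, 1062 and 1264 normalized counts against 1217 to 1504 (difference -0.19, SE 0.09). The mean of that list was 0.30 below the wild-type mean in heterozygote replicate 1 and 0.25 above it in replicate 2, so it varied more within the heterozygotes than between the groups.

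Of 18 dopamine, adrenergic, histamine and muscarinic receptors 9 lay on each side of 0. Drd5, a dopamine receptor of the D1 class, was at 294 to 464 against 267 to 377 (difference 0.27, SE 0.12). Of 15 neurotrophic factors and receptors 7 lay above 0, and Gfra2, a receptor of the GDNF family, was at 808 to 910 against 824 to 1072 (difference -0.18, SE 0.07). Aldoc, an aldolase of astrocytes, was at 14460 to 16619 against 15318 to 17853 (difference -0.10, SE 0.05). In these 4 genes the groups overlapped and no limma adjusted p was below 0.719. Of 13 myelin genes 10 lay below 0 with a median of -0.01, and of 5 blood genes 3 did, with a median of -0.04.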
